A study of Mus musculus with 4 samples.

Results

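Solute carriers are membrane proteins that move ions, sugars, amino acids, nucleosides, vitamins and other small molecules across the cell surface and the membranes of organelles, most of them by facilitated diffusion or by coupling one solute to the gradient of another. The mouse genome names them by numbered families, so that family 2 holds the facilitative glucose transporters, family 25 the carriers of the inner mitochondrial membrane and family 30 the zinc transporters. In fibroblasts they supply growing cells with amino acids and glucose, exchange metabolites between cytosol and mitochondria, and keep metal ions, phosphate and pH within bounds.

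Transcripts of these genes were followed on spotted oligonucleotide arrays by the wording of the array's own gene description: every spot whose description begins with "Solute carrier family" was taken, and Slc11a2 was left out. The rule gave 128 probes, 1 spot each, of 16463 transcript probes. They come from 35 families, and 125 of them carry a current gene symbol, which stand for 124 distinct genes. Of the 128 probes, 103 were above background in at least 1 channel on at least 2 of the 4 arrays and were tested, and the other 25 were not, among them 14 that were dim in both channels on all 4 arrays.

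The cells are mouse embryonic fibroblasts (MEFs) into which a plasmid carrying Dlx3, a homeobox transcription factor, was introduced, in a study of whether Dlx3 controls Lifr and Chrdl1 in embryonic stem cell differentiation. On 2 arrays the RNA came from stable expressing cells transfected with the Dlx3 plasmid, labelled with Cy5, against cells transfected with the empty plasmid, labelled with Cy3. On the other 2 arrays it came from Dlx3 expressing cells after a transient transfection of 24 h, labelled with Cy5, against control MEFs, labelled with Cy3. The second array of each pair is labelled as a biological repeat. The labels give neither the promoter of the plasmid nor whether the stable cells are 1 clone, and nothing says that the control MEFs of the transient arrays received a plasmid. Every value below is a log2 ratio of the Dlx3 channel over the control channel unless it is called an intensity, so that 1 is 2-fold higher in the Dlx3 cells. Dlx3 RNA carried Cy5 on all 4 arrays, so an effect of the dye on a single probe cannot be told apart from an effect of Dlx3. In such RNA pools fewer cells with a transcript and less of it per cell cannot be told apart.

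Between 77.3% and 87.2% of transcript probes were above background in at least 1 channel per array, and the median foreground intensity was 774 and 813 in the Dlx3 channel, against 791 and 865 in the empty plasmid channel, on the stable arrays. On the transient arrays it was lower, at 484 and 574 in the Dlx3 channel, against 456 and 568 in the control channel. Of the array's randomized oligonucleotides, between 28.6% and 54.2% per array were above background as well. Being above background therefore does not by itself show that a transcript was present. Dlx3 itself, the transfected gene, had ratios of 0.06 and 0.23 in stable and 0.14 and 0.56 in transient cells, above 0 on all 4 but not past the threshold in either transfection (adjusted p = 0.396 and 0.179, limma). Where its probe lies relative to the plasmid's insert is not given in the sources used here. Lifr, which encodes a cytokine receptor subunit, was higher in the stable cells (mean 0.56, adjusted p = 0.0194). It read 0.84 and 0.74 in transient cells (adjusted p = 0.0649) and passed with both transfections averaged (adjusted p = 0.00635). Chrdl1, which encodes a secreted BMP antagonist, read -0.06 and 1.45 on the stable arrays, which disagree in sign, and did not pass (adjusted p = 0.151). On the transient arrays Chrdl1 read 1.20 and 1.14 (adjusted p = 0.129), and it passed only with both transfections averaged (adjusted p = 0.0324). Of 9 fibroblast marker probes 8 were above background, among them Vim, Col1a2 and Pdgfrb, while Lum was too dim to test. By the same filter 5 of 5 epithelial, 4 of 5 endothelial, 3 of 3 muscle and 2 of 2 neural marker probes passed. Passing this filter therefore does not tell these cell types apart.

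In the stable transfectants 17 of the 103 tested solute carrier probes changed at an adjusted p under 0.05, 11 higher and 6 lower, which is 16.5% against 22.7% of all 14610 tested probes (11.6% higher and 11.2% lower). The share of solute carriers that changed was thus no larger than that of the array as a whole. The 11 that rose lay between 0.33 and 0.79 and the 6 that fell between -0.91 and -0.44, so none of the 17 reached 2-fold in the mean and 9 were past 1.5-fold. In the transient transfectants 0 of the 103 passed (lowest adjusted p = 0.072, 20 at an unadjusted p under 0.05), against 0.144% of all probes. The difference between stable and transient cells passed for 0 of 103 (lowest adjusted p = 0.0872, 15 at an unadjusted p under 0.05), against 0.24% of all probes, so no carrier is shown to respond differently in the 2 transfections. With both transfections averaged, 24 passed, 12 higher and 12 lower, or 23.3% against 22.3% of all probes. The stable and the averaged calls share 14 probes. For 45 of the 103 carriers the 2 stable arrays lay wholly above or wholly below the 2 transient ones, against 55.2% of all tested probes.

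**Figure D1:**
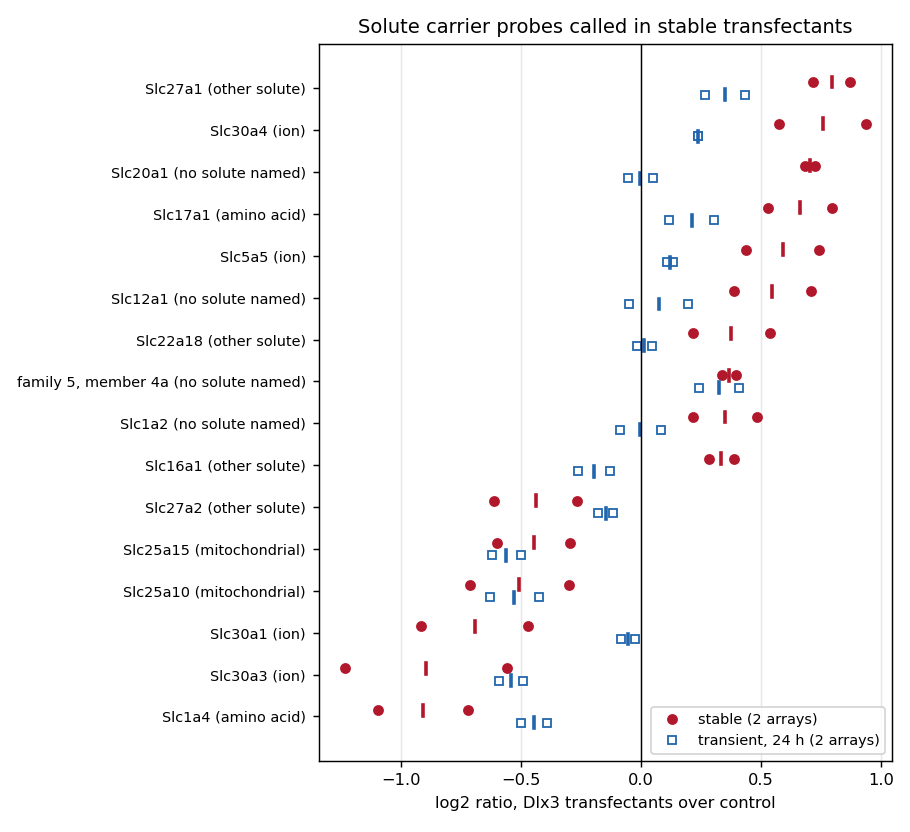
Log2 ratios (Dlx3 transfectants over control, horizontal axis) of 16 of the 17 solute carrier probes called in the stable transfectants, with the class of each in parentheses. Filled circles are the 2 stable arrays, open squares the 2 transient arrays and vertical ticks the group means; the highest stable mean is 0.79 for Slc27a1 and the lowest -0.91 for Slc1a4, and the transient values of most probes lie nearer to 0.

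The strength of these calls is limited by 2 arrays per group. The standard deviation of the group means over the tested carriers was 0.30 in stable and 0.21 in transient cells, against 0.30 and 0.20 over all tested probes, and against 0.22 and 0.26 over the blank spots of the arrays. Of the 17 stable calls 7 held under every alternative that could be run on them (Slc1a4, Slc17a1, Slc20a1, Slc27a1, Slc30a3, Slc30a4 and Slc5a5). All 16 alternatives could be run on Slc1a4, Slc20a1 and Slc30a4, but only 15 on Slc27a1, Slc30a3 and Slc5a5 and 14 on Slc17a1. With any 1 array left out 8 held, the additional one being Slc30a1. Without either transient array, whose only part in the stable fit is its share in the spread, 7 calls ended at adjusted p between 0.0584 and 0.0963. Only 23 of the 103 probes were brighter than 95% of the array's randomized oligonucleotides in at least 1 channel on at least 2 arrays. Of the 17 calls 5 were among them, including Slc1a4, Slc20a1 and Slc30a4. Slc17a1, Slc27a1, Slc30a3 and Slc5a5 were not.

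The zinc transporters of family 30 gave the largest changes among the ion carriers. All 3 probes described as family 30 passed the test in stable cells (against 22.7% of all tested probes), in opposite directions. These proteins move zinc out of the cytosol. Their promoter windows are shown here, with that of Slc1a4, the carrier that fell furthest, because binding sequences can be looked for in them: a zinc-responsive factor, MTF-1, binds metal response elements, and homeodomain factors such as Dlx3 recognise an AT-rich core. The windows are the 250 bases before the RefSeq transcription start (GRCm38.p6), written 5′ to 3′ on the gene's strand. Capitals mark the letters TGCACNC or TGCGCNC (the metal response element core) and TAATT (the homeodomain core) on either strand.
Slc30a1, chr1:191906531-191906780, plus strand: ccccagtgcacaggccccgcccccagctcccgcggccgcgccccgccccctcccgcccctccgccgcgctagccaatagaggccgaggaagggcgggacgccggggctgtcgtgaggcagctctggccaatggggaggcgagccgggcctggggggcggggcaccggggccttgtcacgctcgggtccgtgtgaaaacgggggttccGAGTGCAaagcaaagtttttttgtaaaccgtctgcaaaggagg
Slc30a3, chr5:31108245-31108494, minus strand: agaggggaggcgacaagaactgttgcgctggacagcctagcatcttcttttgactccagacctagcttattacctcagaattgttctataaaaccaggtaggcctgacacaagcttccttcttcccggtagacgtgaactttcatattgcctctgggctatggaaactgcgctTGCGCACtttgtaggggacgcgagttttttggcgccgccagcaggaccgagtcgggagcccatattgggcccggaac
Slc30a4, chr2:122702664-122702913, minus strand: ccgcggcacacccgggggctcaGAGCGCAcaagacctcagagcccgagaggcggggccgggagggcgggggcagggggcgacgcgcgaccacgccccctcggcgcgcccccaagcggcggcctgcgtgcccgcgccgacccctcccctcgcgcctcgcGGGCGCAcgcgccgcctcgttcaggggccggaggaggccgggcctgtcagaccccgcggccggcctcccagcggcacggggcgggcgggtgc
Slc1a4, chr11:20332714-20332963, minus strand: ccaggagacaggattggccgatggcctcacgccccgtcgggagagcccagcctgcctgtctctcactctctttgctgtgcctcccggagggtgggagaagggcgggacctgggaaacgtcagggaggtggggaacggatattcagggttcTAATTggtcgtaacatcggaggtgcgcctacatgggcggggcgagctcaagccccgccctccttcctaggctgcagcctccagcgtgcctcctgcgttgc

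The metal response letters stand at positions -43 to -37 from the start of Slc30a1, at -77 to -71 from that of Slc30a3, and at 2 places from that of Slc30a4, at -228 to -222 and at -92 to -86. A second RefSeq window of Slc30a3 held none of the letters. The homeodomain letters stand at -100 to -96 from the start of Slc1a4. Neither is particular to the genes shown. The metal response letters also stand in a window of the called carriers Slc16a1, Slc20a1, Slc25a15, Slc27a1 and Slc27a2, and TAATT in one of Slc12a1 and of Slc17a1. Over all 32851 RefSeq windows of this length 21.4% hold the metal response letters and 8223 hold TAATT, and of the 130 windows of solute carrier genes 29 hold the metal response letters and 25 hold TAATT. Such matches describe the letters of these windows and not bound sites.

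Slc30a4, which loads zinc into vesicles and is mutated in the lethal milk mouse, read 0.94 and 0.57 in stable and 0.24 and 0.24 in transient cells. Its intensities were 2791 and 2932 in the Dlx3 channel, against 1554 and 2105 in the empty plasmid channel, and the stable arrays lay wholly above the transient ones. It rose 1.69-fold in stable cells (log2 0.75 ± 0.10, SE; adjusted p = 0.0108). Slc30a3, which fills synaptic vesicles with zinc in neurons, read -0.56 and -1.23 in stable and -0.49 and -0.59 in transient cells, below 0 on all 4 arrays with overlapping groups. Its stable mean was -0.89 ± 0.16 (SE; adjusted p = 0.0170). Slc30a1, the exporter of zinc at the cell surface, read -0.47 and -0.91 in stable cells and -0.02 and -0.09 in transient cells, where the groups did not overlap. Its stable mean was -0.69 ± 0.12 (SE; adjusted p = 0.0153), it passed with any 1 array left out, and its call ended with loess fitted per print block (adjusted p = 0.062, range over its alternatives 0.00598 to 0.062). Slc30a5, a zinc transporter of the secretory pathway whose probes are described in other words, fell on 1 of its 2 probes in stable cells (-0.71 and -0.59, adjusted p = 0.00887) and read -0.16 and -0.33 on the other (adjusted p = 0.0723). Slc30a7, another zinc transporter described in other words, did not pass (adjusted p = 0.667). Of the zinc and metal importers described in other words, Slc39a8 rose in stable cells (0.22 and 0.40, adjusted p = 0.044) while Slc39a3, Slc39a4, Slc39a7, Slc39a11, Slc39a13 and both probes of Slc39a9 did not pass.

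**Figure D2:**
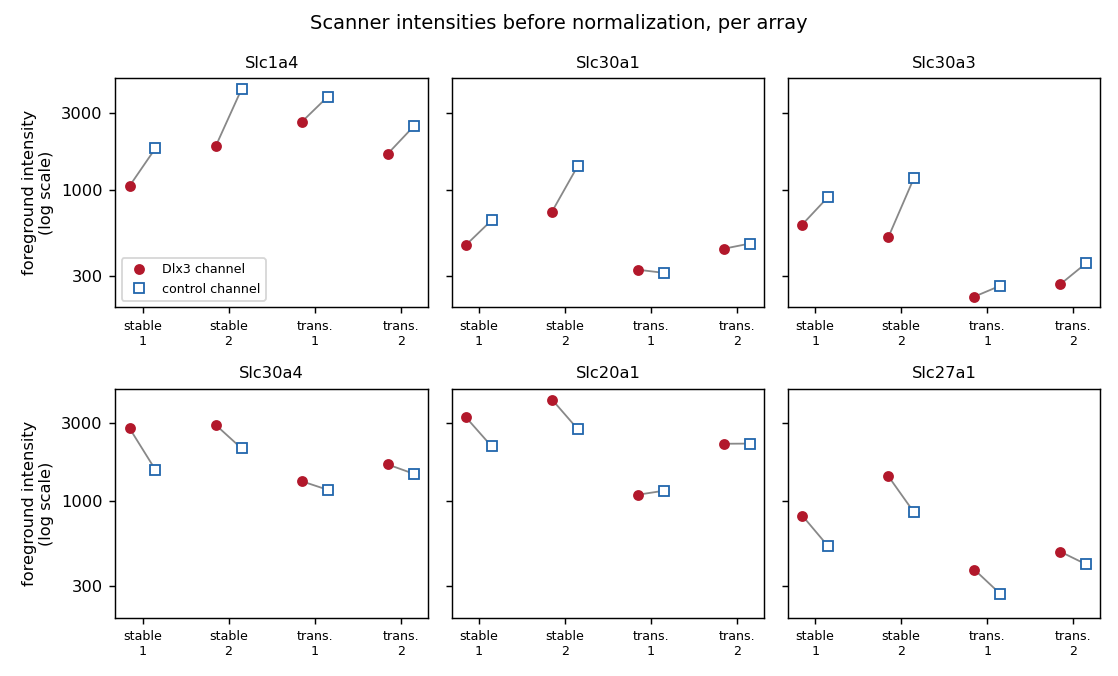
Mean foreground intensity (vertical axis, log scale, before normalization) of 6 called probes on the 2 stable and 2 transient (trans.) arrays. On each array the filled circle is the Dlx3 channel and the open square the control channel; on both stable arrays the Dlx3 channel is below the control channel for Slc1a4, Slc30a1 and Slc30a3 and above it for Slc30a4, Slc20a1 and Slc27a1.

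Few other ion carriers passed. Of 21 tested ion probes (of 26) 2 rose and 2 fell in stable cells, or 19.0% against 22.7% of all tested probes. Their median was 0.08, against 0.0065 over all tested probes. The other probe that rose was Slc5a5, the sodium iodide symporter of the thyroid, with 0.44 and 0.74 in stable and 0.13 and 0.11 in transient cells. The groups did not overlap, and its stable mean was 0.59 ± 0.09 (SE; adjusted p = 0.0143). Slc11a1, a proton-coupled metal transporter of macrophage phagosomes, read 0.22 and 0.93 in stable and 0.43 and 0.65 in transient cells and passed only with both transfections averaged (adjusted p = 0.0243). Its control channel was not well above background on any of the 4 arrays, and its Dlx3 channel was above it on only 1 stable and 1 transient array. With the control channel raised to the lowest level counted as above background, the Dlx3 channel was 1.16-fold higher in stable cells (measured log2 mean 0.57). In transient cells it was 1.44-fold higher (measured log2 mean 0.54). Neither value is a strict lower bound, because on 1 array of each group the Dlx3 channel was dim as well. A macrophage and blood marker list read 1056 and 1218 in summed intensity in the Dlx3 channel, against 897 and 1114 in the empty plasmid channel, and 2 or 3 of its 3 probes were above background on each array. Of the 3, Hbb-y, an embryonic globin (0.66 and 0.99, adjusted p = 0.00888), and Spi1, a transcription factor of myeloid cells (0.54 and 0.21, adjusted p = 0.0423), rose in stable cells and Ptprc did not pass (adjusted p = 0.527). In transient cells the sums were 755 and 870 in the Dlx3 channel, against 610 and 837 in the control channel, and their part in the result was not tested. Slc4a3, a chloride and bicarbonate exchanger, also passed only in the average (adjusted p = 0.0256), and a second probe of the gene read -0.18 and -0.07 in stable cells and did not (adjusted p = 0.468). Slc40a1, described as family 39 and known as the iron exporter ferroportin, read -0.53 and 0.49 on the 2 stable arrays, which disagree in sign.

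Amino acid carriers were represented by 14 probes, of which 10 were tested, and 1 rose and 1 fell in stable cells (median -0.05). Slc1a4, an exchanger of alanine, serine, cysteine and threonine, read -0.72 and -1.09 in stable and -0.39 and -0.50 in transient cells. It was the carrier with the lowest stable mean, and the 2 groups did not overlap. In stable cells its intensity was 1065 and 1863 in the Dlx3 channel, against 1812 and 4169 in the empty plasmid channel. In transient cells it was 2629 and 1678 in the Dlx3 channel, against 3745 and 2468 in the control channel. It fell 1.88-fold in stable cells (log2 -0.91 ± 0.11, SE; adjusted p = 0.0087, limma) and read -0.45 ± 0.11 in transient cells, where it did not pass (adjusted p = 0.108). The difference between the 2 transfections did not pass either (adjusted p = 0.199).

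Slc17a1, which the array describes as a vesicular glutamate transporter and which is known as a sodium phosphate and urate transporter of the kidney, read 0.79 and 0.53 in stable cells and 0.31 and 0.12 in transient cells. It rose in stable cells (0.66 ± 0.10, SE; adjusted p = 0.0125). Its intensities were low, at 360 and 449 in the Dlx3 channel, against 245 and 369 in the empty plasmid channel, and on the transient arrays both channels were not well above background. Slc7a2, a cationic amino acid transporter of the y+ system, had the highest transient mean of the class (0.54 and 0.45), but its stable arrays read -0.02 and 1.05 and no contrast passed (stable adjusted p = 0.145). The large neutral amino acid transporter Slc7a5 read -0.07 and -0.18 in stable cells, and its heavy chain partner Slc3a2 read 0.06 and -0.09. The cystine and glutamate exchanger Slc7a11 read 0.40 and -0.10. None of these passed in any contrast.

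Among genes that answer to amino acid shortage, 1 of 10 tested probes rose and 1 fell in stable cells. Ddit3, a stress-induced transcription factor, rose (0.60 and 0.38, adjusted p = 0.0184), and Mthfd2, a mitochondrial folate enzyme, fell (-0.29 and -0.39, adjusted p = 0.0296). Atf4, the central factor of that response, read 0.07 and -0.47 (adjusted p = 0.3). Of the amino acid carriers described in other words, Slc38a4, a system A transporter, rose on 1 of its 2 probes in stable cells (0.49 and 1.49, adjusted p = 0.0262) and read 0.14 and 1.02 on the other (adjusted p = 0.0757). Slc1a3, an astrocytic glutamate transporter, rose as well (0.42 and 0.85, adjusted p = 0.018) and read 0.90 and 0.86 in transient cells (adjusted p = 0.0642).

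No glucose carrier passed the test. All 6 tested probes of 7 missed the threshold in each contrast, 0 of 6 had an unadjusted p under 0.05 in stable or transient cells, and the class medians were 0.10 in stable and 0.01 in transient cells. Slc2a1, the ubiquitous glucose transporter of growing cells, read 0.49 and -0.20 on the stable arrays, which disagree in sign, and -0.25 and -0.19 on the transient arrays. Its intensity was 811 and 755 in the Dlx3 channel, against 606 and 910 in the empty plasmid channel, on the stable arrays, and 3079 and 3634 in the Dlx3 channel, against 3950 and 4391 in the control channel, on the transient arrays. Slc2a4, the insulin-regulated transporter of muscle and fat, read 0.08 and 0.23 in stable cells and 0.19 and 0.11 in transient cells (adjusted p = 0.205 and 0.349). Slc2a3, Slc2a5, Slc2a8 and Slc2a9 had stable means between -0.06 and 0.14, and Slc2a2, the transporter of liver and pancreatic islets, was too dim to test.

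Of 14 tested probes of glycolysis, the pathway that breaks the sugar down, 7 rose and 1 fell in stable cells (57.1%, against 22.7% of all tested probes). Their stable median was 0.47, and in transient cells 0 of 14 passed. This list was chosen with earlier results of these data known, so its share is a description and not a test. Both channels were above background on both stable arrays for 4 of the 7 that rose. These were Aldoa, an aldolase, which read 0.83 and 0.59 (adjusted p = 0.0097), Pfkm and Pfkl, subunits of phosphofructokinase, and Tpi1. Ldhb rose with its control channel above background on 1 stable array. For the other 2 the stable ratio rests on dim channels: the control channel of Eno2 and both channels of Hk2 were not well above background on either stable array. Hk2 was also the 1 probe of the 14 that passed for the difference between the transfections (adjusted p = 0.0304, against 0.24% of all probes), with -0.53 and -0.47 in transient cells, where both channels were above background. Pgam1 fell in stable cells (adjusted p = 0.0359), with up to 32% of its pixels saturated.

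**Figure D3:**
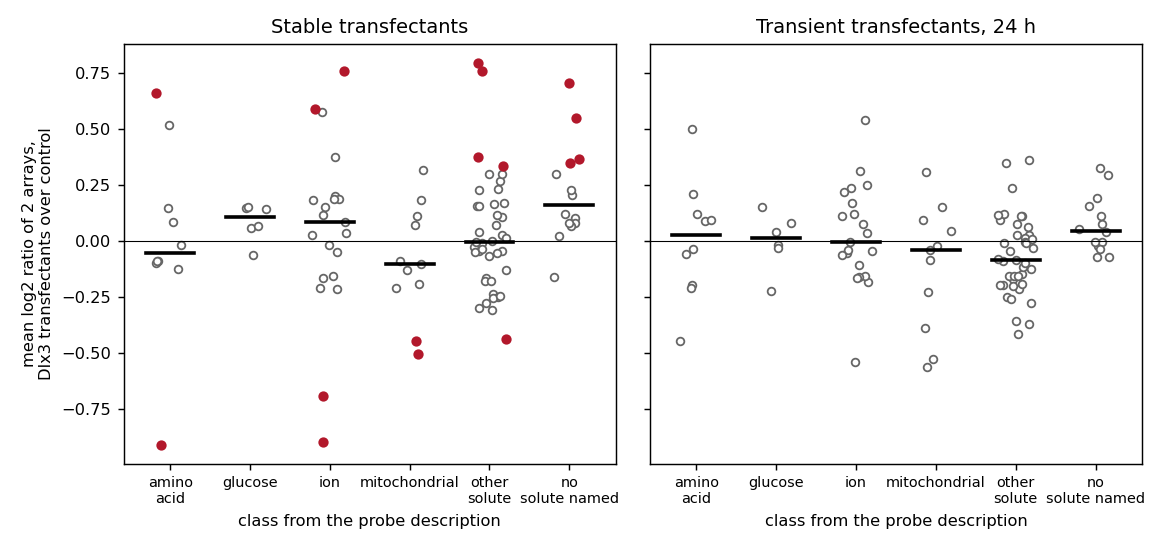
Mean log2 ratio of the 2 arrays of each group (vertical axis) for the 103 tested probes by class, in stable (left) and transient (right) transfectants. Each point is a probe, filled points are the 17 called in stable cells and horizontal bars are class medians, which lie between -0.10 and 0.16 in stable cells; the glucose class has no filled point.

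All 11 mitochondrial carrier probes were tested, and 2 fell and 0 rose in stable cells (18.2%, against 22.7% of all tested probes, median -0.10). With both transfections averaged 3 fell and 1 rose (36.4%, against 22.3% of all tested probes). In this class 7 probes were below 0 on all 4 arrays and 3 were above 0 on all 4, where 39.7% of all tested probes and 44 of the 103 carriers had 1 sign throughout. Slc25a15, which exchanges ornithine for citrulline in the urea cycle, read -0.60 and -0.30 in stable and -0.50 and -0.62 in transient cells. Slc25a10, the dicarboxylate carrier, read -0.71 and -0.30 in stable and -0.42 and -0.63 in transient cells. For both genes the ranges of the 2 transfections overlap.

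The stable means were -0.45 ± 0.10 (SE; adjusted p = 0.0267) for Slc25a15 and -0.51 ± 0.12 (SE; adjusted p = 0.0316) for Slc25a10, and Slc25a15 had the lowest adjusted p of all carriers in transient cells (0.072). These 2 calls are less firm than those above. With loess fitted per print block the stable mean of Slc25a15 was -0.09 (adjusted p = 0.443, range over its alternatives 0.0209 to 0.443) and that of Slc25a10 was -0.15 (adjusted p = 0.285, range 0.0118 to 0.285), and both calls ended without stable array 1 and without either transient array (adjusted p between 0.0584 and 0.0858). Slc25a13, the aspartate and glutamate carrier citrin, was called lower only in the average (stable -0.14 and -0.06, transient -0.48 and -0.29, adjusted p = 0.0337). Slc25a20, which imports acylcarnitines for fatty acid oxidation, was called higher there (0.19 and 0.44, then 0.35 and 0.27, adjusted p = 0.0224). Slc25a4, the ADP and ATP exchanger of heart and muscle, read -0.19 and -0.23 in stable cells and -0.0058 and -0.04 in transient cells, and did not pass (adjusted p = 0.0857). Of 15 tested family 25 probes described in other words 3 rose in stable cells and 12 did not pass. Those that rose were Slc25a23 (0.77 and 0.63, adjusted p = 0.00993), Slc25a51 (0.42 and 0.74, adjusted p = 0.0168) and Slc25a30 (0.76 and 0.20, adjusted p = 0.0483).

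Of 41 tested carriers of other named solutes (of 51) 4 rose and 1 fell in stable cells (12.2%, against 22.7% of all tested probes, median -0.0070). The fatty acid transporters of family 27 held 2 of these. Slc27a1, which activates and takes up long-chain fatty acids, read 0.72 and 0.87 in stable cells and 0.43 and 0.26 in transient cells. Every array was above 0 and the groups did not overlap. It had the highest stable mean of all carriers (0.79 ± 0.09, SE; adjusted p = 0.0078) and the lowest adjusted p of the carriers in the average (0.0061). Slc27a2, an acyl-CoA synthetase for very long chains, read -0.61 and -0.27 in stable cells and -0.18 and -0.12 in transient cells (stable adjusted p = 0.031). Its Dlx3 channel was above background on 1 of the 2 stable arrays, and its call ended without stable array 1 (adjusted p = 0.0695) and without either transient array (0.0688; range over its alternatives 0.019 to 0.0695). Slc27a4 was called lower in the average alone (mean -0.25, adjusted p = 0.0287), and Slc27a3 and Slc27a5 did not pass.

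In the monocarboxylate family, Slc16a1, which carries lactate and pyruvate with protons, read 0.39 and 0.28 in stable cells and -0.26 and -0.13 in transient cells, above 0 in the one and below 0 in the other. It rose in stable cells (0.33 ± 0.08, SE; adjusted p = 0.0341), and the difference between the transfections did not pass (adjusted p = 0.129). The stable call ended with any 1 array left out (adjusted p between 0.0534 and 0.0856, range over all its alternatives 0.0272 to 0.0999). Emb, the ancillary protein that carries monocarboxylate transporters to the surface, fell in stable cells (-0.84 and -0.37, adjusted p = 0.0216), and Slc16a3, a lactate exporter described in other words, read 0.59 and -0.35 and did not pass.

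Slc22a18, an imprinted member of the organic cation family, read 0.21 and 0.54 in stable cells, where it rose (adjusted p = 0.0416), and -0.02 and 0.05 in transient cells. Its call ended without stable array 2 (adjusted p = 0.146) and without either transient array (0.0914; range over its alternatives 0.0144 to 0.146). A further 5 carriers of other solutes were called lower in the average alone. Slc29a1, the equilibrative nucleoside transporter, is an example, at -0.24 and -0.25 in stable and -0.25 and -0.27 in transient cells (adjusted p = 0.0224). The others are Slc27a4, described above, Slc19a2, a thiamine transporter (mean -0.22, adjusted p = 0.0378), Slc22a2, an organic cation transporter (mean -0.26, adjusted p = 0.0214), and Slco3a1, an organic anion transporter (mean -0.30, adjusted p = 0.0236). The direction of Slc22a2 turned with loess fitted per print block (mean 0.0428, adjusted p = 0.638, range over its alternatives 0.0146 to 0.638). Of the family 6 probes described as such 0 of 4 passed in stable cells, and of 5 tested ones described in other words 2 rose, Slc6a20a (0.41 and 0.68, adjusted p = 0.0156) and Slc6a8, the creatine transporter (0.41 and 0.45, adjusted p = 0.0226).

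A description without a solute was given for 19 probes, of which 14 were tested. In stable cells 4 rose and 0 fell (28.6%, against 22.7% of all tested probes, median 0.16). Slc20a1, the cell surface phosphate transporter that gammaretroviruses use as a receptor, read 0.68 and 0.72 in stable cells and -0.06 and 0.05 in transient cells. Its 2 stable arrays were close to each other (SD 0.03, n = 2) and far above both transient arrays. Its intensity was 3265 and 4194 in the Dlx3 channel, against 2161 and 2758 in the empty plasmid channel. It rose 1.63-fold in stable cells (log2 0.70 ± 0.08, SE; adjusted p = 0.0078), and of all carriers it came nearest to a difference between the transfections (0.71, adjusted p = 0.0872). Slc12a1, the kidney cotransporter of sodium, potassium and chloride, read 0.70 and 0.39 in stable cells and 0.20 and -0.05 in transient cells (stable adjusted p = 0.0216). Its call ended without stable array 1 (adjusted p = 0.056, range over its alternatives 0.0112 to 0.056).

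A probe described as family 5, member 4a, which could not be given a current symbol, was above 0 on all 4 arrays, at 0.33 and 0.39 in stable and 0.41 and 0.24 in transient cells (stable adjusted p = 0.0277). Slc1a2, the main glutamate transporter of astrocytes, read 0.21 and 0.48 in stable cells and 0.08 and -0.09 in transient cells (stable adjusted p = 0.0483). Its channels were above background on 1 of the 2 stable arrays each. Both calls ended without either transient array (adjusted p = 0.0688 for the probe of family 5 and 0.0963 for Slc1a2) and without stable array 2 (0.0796 and 0.191), with ranges over the alternatives of 0.0195 to 0.0796 and of 0.0236 to 0.27. Slc5a3, which takes up myo-inositol, was called higher in the average alone (mean 0.26, adjusted p = 0.0493). Slc1a5, a glutamine transporter, and Slc12a2, the widespread cotransporter of sodium, potassium and chloride, did not pass.

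**Figure D4:**
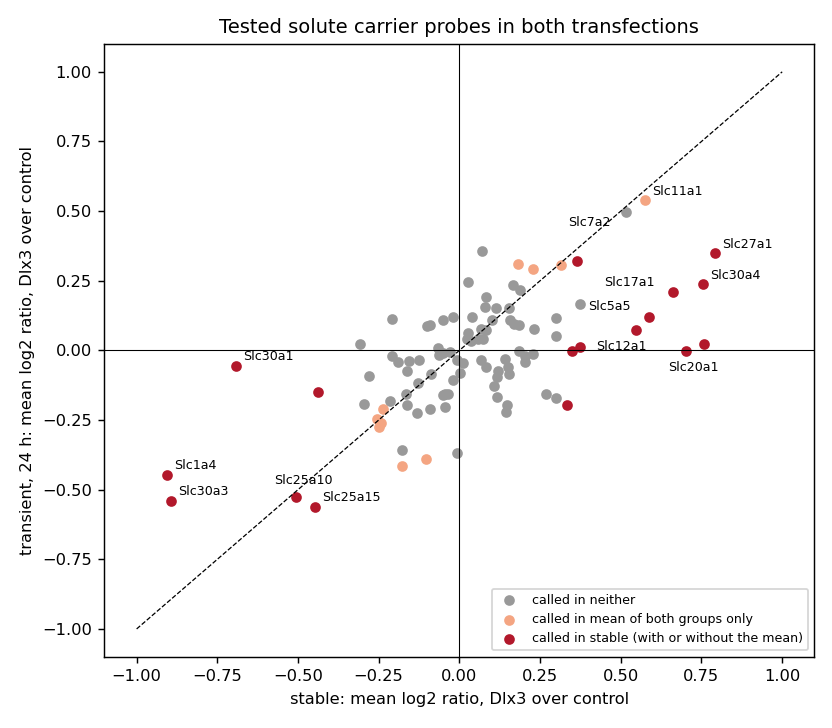
Mean log2 ratio (Dlx3 over control) in stable (horizontal axis) and transient (vertical axis) transfectants for the 103 tested carriers, coloured by call, with the line of equal means dashed. Of the 17 stable calls 15 lie further from 0 in stable than in transient cells, and Slc25a10 and Slc25a15 lie about as far or further in transient cells.

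Set side by side, the 17 stable calls were larger in stable than in transient cells for 15 probes and of opposite sign in the means for 3. Because they were chosen by the stable test, this direction of the difference is a description. Of the 17, 11 had the same sign on all 4 arrays. Of the 24 calls in the average, 23 ended without transient array 1 (adjusted p between 0.0507 and 0.281) and 22 without transient array 2 (0.0645 to 0.239), and Slc1a4 held without any 1 array. No carrier was past 2-fold the same way on both arrays of a group, against 0.308% of all tested probes in stable and 0.103% in transient cells.

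Beside the carriers named by the rule, the array held 128 probes of Slc genes described in other words. Of these 112 were tested, and 16 rose and 6 fell in stable cells (19.6%, against 22.7% of all tested probes). Of 20 tested ion pump probes 4 rose and 0 fell, namely Atp2b1, a calcium pump of the cell surface, and 3 subunits of the vacuolar proton pump, Atp6v1a, Atp6v1e1 (on 1 of its 2 probes) and Atp6v1f. Of 23 tested ATP-binding cassette transporters 3 rose and 2 fell (21.7%). Of 8 tested proteins that traffic or regulate carriers 3 fell and 0 rose (37.5%, against 22.7% of all tested probes called and 11.2% called lower). These were Emb, Arl6ip5 (-0.45 and -0.42, adjusted p = 0.0168), which acts on glutamate transporters, and Stk39 (-0.42 and -0.71, adjusted p = 0.0153), a kinase of cation and chloride cotransporters. This list also holds Slc9a3r1 and Slc9a3r2, described as regulators of a family 9 exchanger, which the rule counts among the ion carriers. Neither of them passed in stable cells. In transient cells 0 probes of these 4 lists passed. The lists were chosen with earlier results of these data known, so their shares are descriptions.

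**Figure D5:**
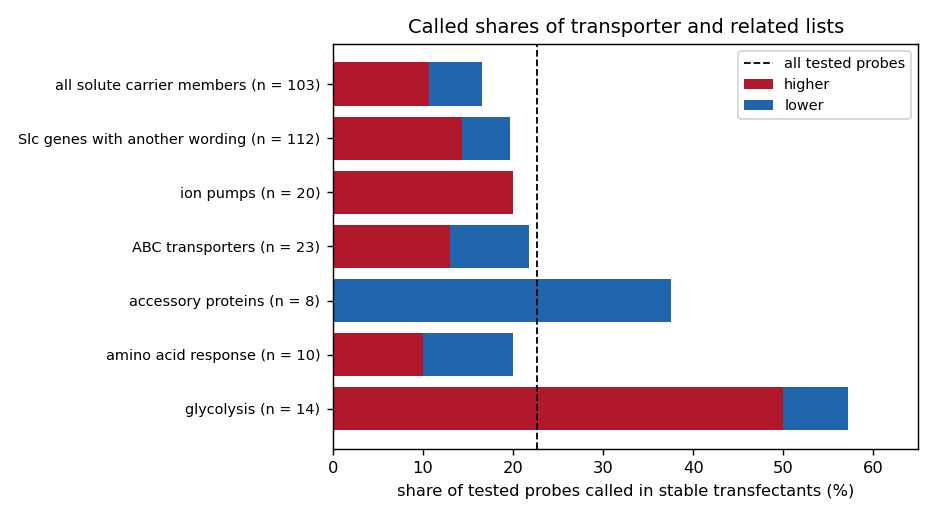
Share of tested probes (horizontal axis, percent) called higher (red) or lower (blue) in stable transfectants for the solute carriers and for 6 related gene lists, with the share over all tested probes (22.7%) as a dashed line. The carriers lie at 16.5% and below the line, and accessory proteins (37.5% of 8) and glycolysis (57.1% of 14, of which 2 calls rest on dim channels) lie above it. Slc9a3r1 and Slc9a3r2 are counted both as carriers and as accessory proteins. The lists were chosen with earlier results of these data known, so their shares are descriptions.

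Markers of other cell types were measured in the same channels, and the sums given here are intensities before normalization. The summed intensity of 5 endothelial markers was 19641 and 28146 in the Dlx3 channel of the stable arrays, against 24970 and 38188 in the empty plasmid channel, although of the 4 tested none was called lower and 1, Sox18, was called higher (0.32 and 0.48, adjusted p = 0.0379). That of 2 neural markers was 3394 and 3087 in the Dlx3 channel, against 4844 and 5660 in the empty plasmid channel, and of these Tubb3 fell (adjusted p = 0.0156) and Map2 did not pass. That of 9 fibroblast markers was 123337 and 142303 in the Dlx3 channel, against 132474 and 149558 in the empty plasmid channel. This last sum includes saturated spots, with up to 91% of the pixels of Vim and 83% of those of Col1a2. After normalization 7 of the 8 tested had a stable mean above 0. Of the 8 fibroblast markers tested, Dcn, a matrix proteoglycan, and Pdgfra, a growth factor receptor, rose in stable cells (0.93 and 1.07, adjusted p = 0.00428; 1.04 and 0.92, adjusted p = 0.00428), and the other 6 did not pass. Of 5 epithelial markers tested Krt19 was called lower in stable cells (adjusted p = 0.0316, limma), and of 3 muscle markers Myf5 was called higher (adjusted p = 0.0328). Of 3 pluripotent markers Nanog was called higher (adjusted p = 0.0133) and Pou5f1 lower (adjusted p = 0.0218). The other markers of these lists did not pass in stable cells. The part of all these marker readings in the carrier results was not tested.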

How the data were processed

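Two-colour spotted oligonucleotide arrays were scanned with GenePix Pro 5.0.0.49, per the file headers. The deposited tables hold mean and median foreground and median background intensity per channel, percent of saturated pixels and a flag score. Ratios and probe intensities were taken from the mean foreground, and the filter against background from the median foreground. The authors' deposited value table (unit taken as a score, since its scale is unstated; column medians -1.001 to -1.007) served only as an alternative. Background was corrected with normexp (offset 50), ratios were normalized by loess within each array with control spots at weight 0, and spots of a probe were averaged (limma 3.58.1, R 4.3.3). Probes above background (median foreground over background + 2 SD) in either channel on at least 2 arrays were fitted with 1 mean per group and tested with eBayes. P-values were adjusted (Benjamini-Hochberg) over all 14610 tested probes, with 2 residual degrees of freedom each. Named are every member called in any contrast and, per class, the member with the largest mean in each transfection; other names were chosen after their values were seen. The members and gene lists were chosen with earlier results of these data known. The number of arrays limits the precision, and p-values measure the spread between these arrays. The fit was tested on simulated data. Motifs were searched with Python 3.11.15. Promoter windows come from RefSeq. Values of 2 carriers, 1 of them among the 17 called in stable cells, are not reported here.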

Additional observations from a re-analysis of the deposited data

How the results depend on the processing

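The count of carriers called in stable transfectants was 17 (11 higher, 6 lower) and fell to 10 with the arrays scaled to each other, 10 with the stable arrays fitted alone and 6 (of 23 tested) among probes brighter than the randomized oligonucleotides; leaving out 1 array gave 10 to 22. Centring on the median in place of loess gave 24 (12 higher, 12 lower), and loess per print block gave 12 (9 higher, 3 lower). In transient transfectants 0 became 5 with median centring, 14 with scaling, 12 with the transient arrays alone, 1 with both channels required above background, 1 with the authors' deposited values, and 0 to 12 with 1 array left out. The difference between transfections gave 0 to 10 with 1 array left out. For both transfections averaged, 24 (12 higher, 12 lower) became 18 (11 higher, 7 lower) with loess per print block, 7 above the randomized oligonucleotides, and 1 to 36 with 1 array left out. Slc22a2 in the average read -0.26 and turned to 0.0428 with loess per print block (adjusted p = 0.638, range over its alternatives 0.0146 to 0.638), the only turn of a carrier called in either setting. Causes were not tested, save that fewer arrays or probes entered where these were left out. Over single named carriers 1514 alternative values kept their state, whether called or not called. A call was lost in 130, gained in 87, and 1 turned in direction. Of the calls themselves, 7 of 17 in stable cells and 0 of 24 in the average were kept under every alternative run. The scan day was the same for all arrays, so no block on it was fitted. No paired analysis was possible because the labels carry no replicate numbers that pair the 2 transfections; array numbers follow the order of the labels' accessions.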
